A study of Homo sapiens with 12 samples.

Results

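The HLA class II antigen-presentation pathway was described through 9 genes, HLA-DRA, HLA-DRB1, HLA-DPA1, HLA-DPB1, HLA-DQB1, HLA-DMA, HLA-DMB, CD74 and CIITA, of the 33514 gene symbols in the count tables. All 9 were present and all 9 passed the filter on low counts. Single cells of the head and neck squamous carcinoma (HNSCC) lines SCC1 (UM-SCC-1), SCC6 (UM-SCC-6) and SCC25, which are 3 established cell lines, had been sequenced on the 10x Genomics Chromium platform, which counts unique molecular identifiers (UMIs), 1 for each captured transcript. Each line was grown with serum and given cetuximab, an antibody against the epidermal growth factor receptor (EGFR), daily at 100 nM, or PBS as the untreated control, over 5 days, with 2 replicates for each of the 6 groups. The lines were grown alone, without T cells or other immune cells, and each line stands for the tumour of 1 patient.

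HLA class II molecules are pairs of an α and a β chain that present peptides to CD4+ T cells. HLA-DRA, HLA-DPA1 and HLA-DQA1 encode α chains, and HLA-DRB1, HLA-DPB1 and HLA-DQB1 encode the β chains that pair with them. CD74, the invariant chain, escorts the pairs to endosomes and fills their groove, and HLA-DM, made of HLA-DMA and HLA-DMB, exchanges the CD74 remnant for other peptides. Transcription depends on CIITA, a coactivator that binds no DNA itself and joins the RFX factors and NF-Y at the X and Y boxes of class II promoters. Antigen-presenting cells express these genes constitutively, and epithelial cells are known to induce them through CIITA in response to interferon gamma.

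The 7 HLA genes lie on chromosome 6, between HLA-DRA at chr6:32439887-32445046 and HLA-DPB1 at chr6:33075990-33089696 (RefSeq, GRCh38.p14). CD74 is at chr5:150401639-150412910 and CIITA at chr16:10866206-10943021. HLA-DPA1, at chr6:33064569-33080748, overlaps HLA-DPB1, and whether the counting used strand was not given, so reads in the overlap may be assigned to either. HLA-DRB1 has near-identical copies such as HLA-DRB5, and HLA alleles differ between people. How reads of such copies and of alleles unlike the reference were counted was not given. The values of the HLA genes, those of the β chains and of HLA-DQA1 among them, are uncertain in this respect.

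Promoter sequences of RefSeq were available for 7 of the 9 genes, the exceptions being HLA-DRA and CIITA. The 120 bases from -130 to -11 before the transcription start are shown for 6 of them, to set the parts of the class II promoter type that each holds beside the levels of the genes below. They are reference sequence, not that of the lines. Capitals mark 2 motifs, searched on both strands, which do not overlap each other here. One is an X-box form (AG, any 2 bases, AC, any base, GATG) and the other the Y-box core CCAAT, which reads ATTGG on the other strand.
HLA-DRB1, chr6:32589859-32589978, minus strand: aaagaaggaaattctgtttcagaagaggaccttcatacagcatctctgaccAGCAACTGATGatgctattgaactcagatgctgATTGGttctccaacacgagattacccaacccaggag
HLA-DQB1, chr6:32666668-32666787, minus strand: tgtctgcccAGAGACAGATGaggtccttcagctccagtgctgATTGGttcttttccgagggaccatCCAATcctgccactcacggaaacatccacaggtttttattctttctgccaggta
HLA-DMA, chr6:32953108-32953227, minus strand: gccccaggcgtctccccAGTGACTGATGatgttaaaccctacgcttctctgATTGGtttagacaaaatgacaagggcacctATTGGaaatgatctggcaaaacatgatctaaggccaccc
HLA-DMB, chr6:32941039-32941158, minus strand: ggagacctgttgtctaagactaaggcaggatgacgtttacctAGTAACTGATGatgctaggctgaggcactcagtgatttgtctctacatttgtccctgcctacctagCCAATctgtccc
HLA-DPB1, chr6:33075860-33075979, plus strand: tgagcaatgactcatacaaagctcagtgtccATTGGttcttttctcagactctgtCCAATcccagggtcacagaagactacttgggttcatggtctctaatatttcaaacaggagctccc
CD74, chr5:150412921-150413040, minus strand: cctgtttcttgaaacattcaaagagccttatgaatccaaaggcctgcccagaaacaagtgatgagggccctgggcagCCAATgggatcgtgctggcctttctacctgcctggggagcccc

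The X-box form was found in HLA-DRB1, HLA-DQB1, HLA-DMA and HLA-DMB, and in 0.299% of the same window of all 35116 promoters. CCAAT was found in all 6, and in 20.8% of all promoters. Both were present in 0.0683%. The gap from the X-box match to the next CCAAT match was 22 bases in HLA-DRB1, 22 in HLA-DQB1, 23 in HLA-DMA and 55 in HLA-DMB. The 2 windows listed for HLA-DPA1 held neither motif. These are matches of letters in a window and not measured binding sites. A window without a match may hold an X box whose letters differ from the form searched.

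The 12 samples held 23914 cells, 5270 of SCC1, 9724 of SCC6 and 8920 of SCC25, with 961 to 2854 cells and 57057402 to 112170073 UMIs per sample and a median of 24078.5 to 54864 UMIs per cell. Libraries shared between 1 and 13 cell barcodes. All 10 squamous and epithelial markers had UMIs in every group, although the basal keratins KRT5 and KRT14 were at 1.39 and 0.678 CPM (UMIs per 1000000 UMIs of the normalised library, mean of n = 2) in untreated SCC6, against 454 and 1259 in untreated SCC1. Of 14 markers of antigen-presenting and other blood cells, 4 to 9 were at 0 in each group. MS4A1, CD1C and CLEC9A were at 0 in all 12 samples and PTPRC, which encodes the leukocyte antigen CD45, had 0 UMIs in SCC1, 2 in treated SCC6, and 4 and 9 in untreated and treated SCC25. The summed level of the 14 markers was 8.59 to 13.9 CPM in SCC1, where it came mainly from CD14, 1.84 to 3.14 in SCC6, where it came mainly from CD79A, and 2.54 to 6.45 in SCC25.

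The first question was which class II genes each line carried. Levels are given as CPM. They are counts of transcript 3′ ends with no length correction and are compared only between samples. In summed cells, a lower level may mean fewer expressing cells or less RNA per cell, and these cannot be told apart from the sums alone.

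Each line carried a different and incomplete set. SCC1 had the DQ and DR β chains, HLA-DMA and CD74 with few α-chain UMIs. SCC25 had HLA-DRA, both DP chains, HLA-DMA, HLA-DMB and CD74 with almost no DR or DQ β chain. SCC6 had HLA-DMA and little else. CIITA was found in all 3 lines and was highest in SCC25. Its untreated means were 0.630 CPM there, 0.232 in SCC1 and 0.215 in SCC6. The plot of levels by library shows all 9 genes.

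**Figure D1:**
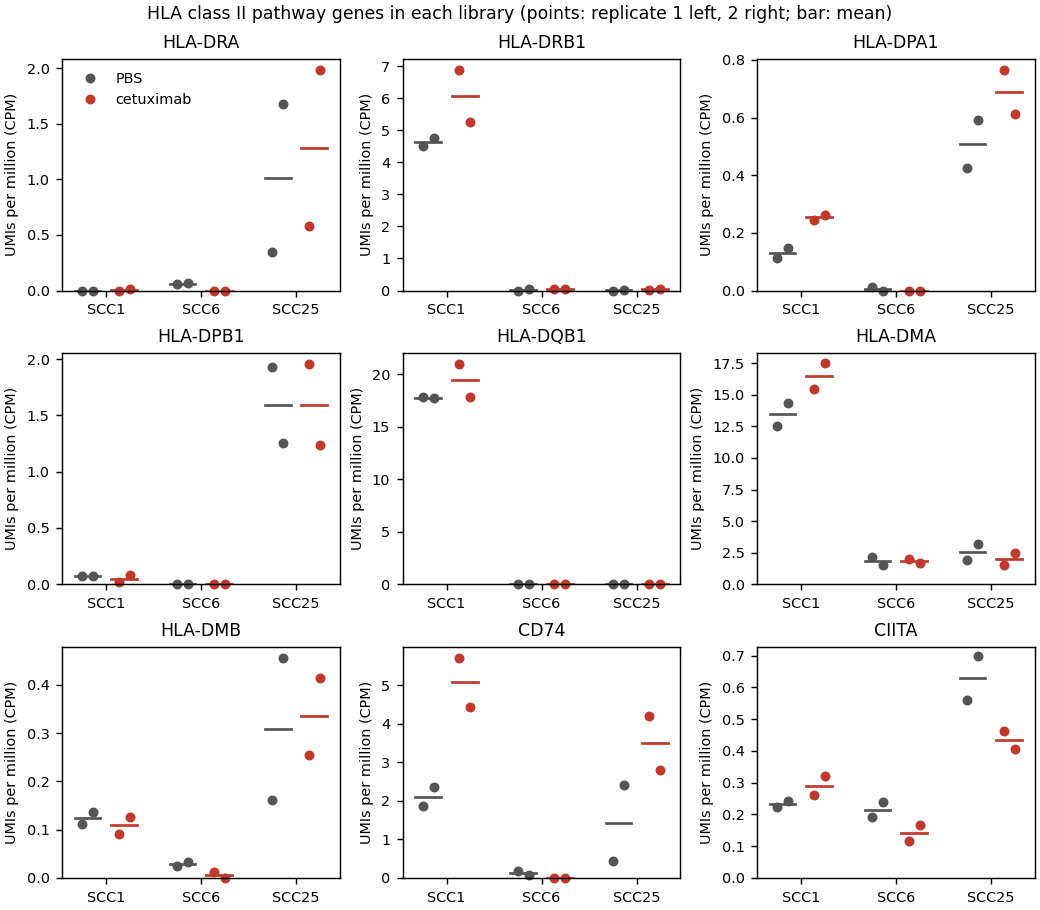
CPM (linear axes from 0) of the 9 genes in each of the 12 libraries, grouped by line, with PBS in grey and cetuximab in red. Points are replicates and bars are group means. HLA-DRB1 and HLA-DQB1 stand at 4.5 CPM or more in all 4 SCC1 libraries and near 0 elsewhere, whereas HLA-DRA and HLA-DPB1 stand apart in SCC25.

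Among the α chains, HLA-DRA was at 0.349 and 1.68 CPM in the untreated SCC25 replicates (1.01 ± 0.942, SD, n = 2) and at 0.579 and 1.98 after cetuximab. Replicate 2 was the higher one in both groups. SCC6 had 5 and 6 HLA-DRA UMIs in the PBS replicates and 0 in both cetuximab replicates, and SCC1 had 1 UMI in 4 libraries. HLA-DRA was at least 61.1-fold lower in untreated SCC1 than in untreated SCC25, a bound set by 3 UMIs over both SCC1 libraries. HLA-DPA1 was at 0.424 and 0.593 CPM in untreated SCC25, 0.112 and 0.147 in untreated SCC1, and had 1 UMI in SCC6. HLA-DQA1, the partner of HLA-DQB1, had 0 UMIs in SCC1 and SCC25 and 8 UMIs, all after cetuximab, in SCC6.

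The β chains had another order. HLA-DQB1 was at 17.8 and 17.8 CPM in untreated SCC1, and at 21.0 and 17.8 after cetuximab, with 5907 UMIs in SCC1, 6 in SCC6 and 1 in SCC25. HLA-DRB1 was at 4.5 and 4.76 CPM in untreated SCC1, with 1685 UMIs in the line against 12 in SCC6 and 7 in SCC25. HLA-DRB5 had 6 UMIs in untreated and 2 in treated SCC1 and none elsewhere. HLA-DPB1 was at 1.93 and 1.25 CPM in untreated SCC25, at 0.0699 and 0.0733 in untreated SCC1, and had no UMI in SCC6. A count of 0 in 9724 SCC6 cells allows up to 0.0309% of cells with a UMI. As counted, HLA-DRA and the DR β chain were therefore found mainly in different lines, with the limit on allele counting given above.

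HLA-DMA was the only member at 1.51 CPM or more in every library of the 3 lines. It was at 12.6 and 14.4 CPM in untreated SCC1, 2.16 and 1.53 in untreated SCC6 and 1.88 and 3.16 in untreated SCC25, so that SCC1 stood apart and SCC6 and SCC25 overlapped. Its partner HLA-DMB was at 0.112 and 0.136 CPM in untreated SCC1, 0.0239 and 0.0326 in untreated SCC6, and 0.162 and 0.457 in untreated SCC25. CD74 was at 1.86 and 2.36 CPM in untreated SCC1 and 0.448 and 2.40 in untreated SCC25, which overlap, and at 0.167 and 0.0653 in untreated SCC6. CIITA was at 0.561 and 0.700 CPM in untreated SCC25, above both other lines, which overlapped at 0.224 and 0.241 in SCC1 and 0.191 and 0.239 in SCC6.

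The untreated lines were compared with the quasi-likelihood test of edgeR on the UMI sums, at a false discovery rate (FDR) of 0.05. SCC1 against SCC6 gave 6 of 9 members, all higher in SCC1, where 40.2% of all genes tested were called and 18.6% were higher in SCC1. SCC1 against SCC25 gave 7 of 9, 3 of them higher in SCC1 and 4 lower, against 40.8% of all genes, 17.3% higher and 23.4% lower. SCC6 against SCC25 gave 6 of 9, all lower in SCC6, against 40.9% and 22.2% lower. DESeq2 called 7, 7 and 6 members, against 43.1%, 43% and 43.2% of genes, the added one being HLA-DRA, lower in SCC1 than in SCC6. Over the 9 members the median log2 fold change was 4.18, -1.32 and -3.40 in these comparisons, beside -0.0033, -0.04 and -0.0046 over all genes tested. The lines had no biological replicate beyond these libraries, so the comparisons are between 3 individual tumours.

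Of the members in which SCC1 exceeded SCC6, HLA-DMA differed by 2.87 ± 0.34 (log2, SE, FDR 0.000113) and CD74 by 4.18 ± 0.77 (FDR 0.00177). HLA-DRB1 differed 272-fold, with a counting interval of 92.8 to 1322 set by 3 UMIs in SCC6, and HLA-DQB1 3126-fold, with an interval of 561 to 123519 set by 1 UMI. HLA-DPA1 differed 23.1-fold (3.74 to 955, 1 UMI) and HLA-DPB1 was at least 4.21-fold higher. Those intervals are exact at 95% and cover counting error only. HLA-DRA, HLA-DMB and CIITA did not pass in this comparison, with FDR 0.098, 0.0549 and 0.851.

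Against SCC25, SCC1 was lower in 4 members. The log2 difference was -4.44 ± 0.60 for HLA-DPB1 (FDR 0.000667), -1.96 ± 0.47 for HLA-DPA1 (FDR 0.00946) and -1.43 ± 0.36 for CIITA (FDR 0.01), and HLA-DRA passed with the bound above (FDR 0.00272). SCC1 exceeded SCC25 in HLA-DMA by 2.41 ± 0.33 (FDR 0.000341), in HLA-DRB1 851-fold (152 to 33658, 1 UMI in SCC25) and in HLA-DQB1 at least 1086-fold. The HLA-DPA1 call was lost without SCC1 PBS replicate 1 (FDR 0.07) or SCC25 PBS replicate 2 (0.0536), and the CIITA call without SCC1 PBS replicate 1 (0.0654) or 2 (0.0596) or SCC25 PBS replicate 2 (0.0598). CD74 did not pass (log2 difference 0.56 ± 0.62, FDR 0.508). The value rested on 1 library, being 2.23 (FDR 0.0136) without SCC25 PBS replicate 2 and -0.19 without replicate 1.

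Against SCC25, SCC6 was lower in 6 members. The log2 difference was -3.63 ± 0.76 for CD74 (FDR 0.00389), -3.40 ± 0.72 for HLA-DMB (FDR 0.00411), -1.54 ± 0.36 for CIITA (FDR 0.00695) and -4 ± 0.97 for HLA-DRA (FDR 0.0114). HLA-DPB1 was at least 90.8-fold lower and HLA-DPA1 0.011 of the SCC25 level (0.000275 to 0.0626, 1 UMI). The HLA-DRA call was lost without SCC25 PBS replicate 2 (FDR 0.073), SCC6 PBS replicate 1 (0.0753) or SCC6 PBS replicate 2 (0.0655).

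The genes around the pathway were read from gene lists. Their counts stand beside the shares of all genes given above, 40.2%, 40.8% and 40.9% called for SCC1 against SCC6, SCC1 against SCC25 and SCC6 against SCC25. Of the 7 subunits that CIITA joins at class II promoters, 3 differed between untreated SCC1 and SCC6, a share near that of all genes. RFX5, RFXAP and RFXANK differed by 0.80 ± 0.22, 0.60 ± 0.21 and -0.98 ± 0.26 in SCC1 (log2, FDR 0.0154, 0.0477 and 0.0125). Those 3 genes also differed between SCC1 and SCC25, by 0.71 ± 0.22, 1.15 ± 0.22 and -0.91 ± 0.26 (FDR 0.0253, 0.00207 and 0.0169), and only NFYA, higher in SCC6 by 0.80 ± 0.27 (FDR 0.0353), passed between SCC6 and SCC25. All 7 had group means of 2.77 CPM or more. Of 9 interferon gamma signalling genes tested, 5 were higher in SCC1 than SCC6, where 18.6% of all genes were, including the receptor chain IFNGR2 by 2.17 ± 0.27 (FDR 0.000149) and the transcription factor IRF1 by 1.46 ± 0.29 (FDR 0.00297). Only IFNGR2 passed between SCC1 and SCC25. Between SCC6 and SCC25, 3 of the 9 were lower in SCC6, against 22.2% of all genes, and 0 were higher. IFNG itself had 0 UMIs in all 12 samples.

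Of 14 interferon gamma target genes, 10 were higher in SCC1 than SCC6, against 18.6% of all genes, and 13 lower in SCC6 than SCC25, against 22.2%. Between SCC1 and SCC25, 1 was higher and 3 were lower in SCC1, against 17.3% and 23.4%. The HLA class I list had 9 of 9 genes higher in SCC1 than SCC6, 7 of 9 lower in SCC6 than SCC25, and 1 higher and 1 lower in SCC1 than SCC25. The type I interferon list had 12 of 12 higher in SCC1 than SCC6. It also had 6 of 12 higher and 0 lower in SCC1 than SCC25, against 17.3% and 23.4% of all genes. In SCC6 against SCC25, 11 of its 12 genes were lower and 1 was higher.

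The 11 genes of antigen processing and class II turnover had 3 higher and 3 lower in SCC1 than SCC6, where 40.2% of all genes were called in either direction. MARCH1, a ubiquitin ligase that removes class II molecules from the surface, differed by -4.71 ± 0.52 in SCC1 against SCC6 (FDR 7.235e-05) and by -4.17 ± 0.52 against SCC25 (FDR 0.000174). CTSS, the protease that trims CD74, differed by -2.90 ± 0.60 in SCC6 against SCC25 (FDR 0.0037). Among partners of CD74, CD44 differed by -1.46 ± 0.36 in SCC1 against SCC6 (FDR 0.0086) and by -1.89 ± 0.36 against SCC25 (FDR 0.00228). The ligand MIF was measured at 297 to 619 CPM in the 6 group means. Among blood markers, CD14 differed by 1.66 ± 0.58 (FDR 0.0416) and CD79A by -3.42 ± 0.49 (FDR 0.000402) in SCC1 against SCC25. Their part in the class II differences was not tested.

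The second question was whether cetuximab changed the class II genes. By the edgeR test, 0 of 9 members passed in SCC1, where 0.0168% of all genes were called, 0 of 9 in SCC6, against 3.81%, and 0 of 9 in SCC25, against 0%. Across lines 0 of 9 passed, against 3.67%, and 0 of 9 differed between lines in their change, against 0%. At an unadjusted p under 0.05 there were 0 members in SCC1, 2 in SCC6 (HLA-DRA and CD74) and 0 in SCC25. There were 0 across lines and 1, CD74, for the difference between lines. Of all 17897 genes tested, 1570, 3561, 1041, 3757 and 1318 were under 0.05 in these comparisons, in the same order. DESeq2 called 0 members in SCC1, SCC6, SCC25 and across lines, against 1.77%, 9.91%, 0.639% and 10.1% of genes, and called 1, CD74, for the difference between lines, against 1.67%. With the replicate number as a block edgeR called 0 in SCC1, SCC25, across lines and between lines, against 4.45%, 0.978%, 11.6% and 1.29%, and 1 in SCC6, given below. With 2 libraries a group, the spread of the class II genes limited what could be seen, and the missing calls do not show that the genes were unchanged.

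**Figure D2:**
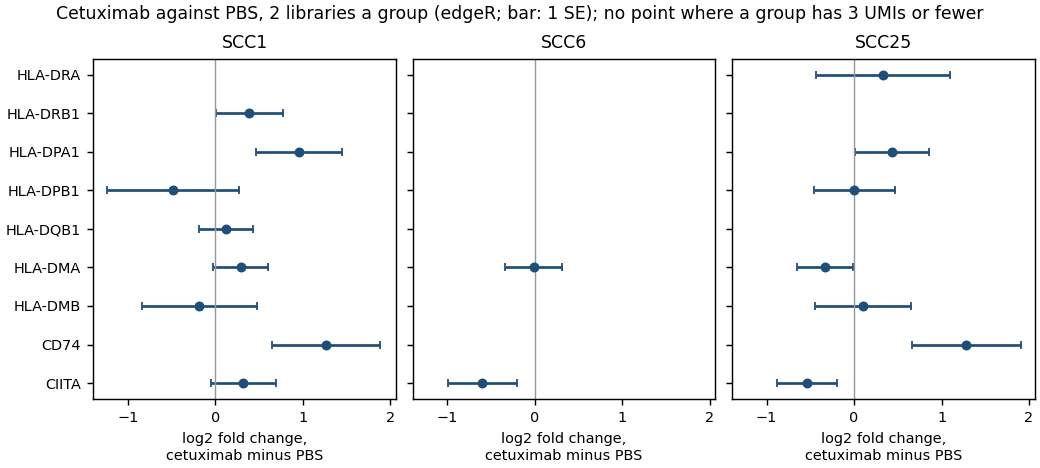
Log2 fold change of cetuximab against PBS (horizontal axis) for each gene in SCC1, SCC6 and SCC25, from edgeR with 2 libraries a group; bars are 1 SE, and no point is drawn where a group had 3 UMIs or fewer. CD74 had the largest point in SCC1 and SCC25, at 1.26 and 1.28, and no gene passed the threshold.

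Among members with more than 3 UMIs in both groups, CD74 had the largest log2 difference in SCC1 and SCC25. It went from 1.86 and 2.36 CPM to 5.71 and 4.43 in SCC1 and from 0.448 and 2.40 CPM to 4.19 and 2.80 in SCC25. Both cetuximab libraries lay above both PBS libraries in each line. The log2 differences were 1.26 ± 0.62 (FDR 0.627) and 1.28 ± 0.62 (FDR 0.89). In SCC25 the value was 0.54 without PBS replicate 1 and 2.96 without PBS replicate 2, so it rested on the control library with least CD74. In SCC6 the PBS replicates had 14 and 6 UMIs and the cetuximab replicates 0 and 1, a ratio of 0.0523 with a counting interval of 0.00126 to 0.327 (FDR 0.166).

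The test of unequal change between lines gave FDR 0.54 for CD74 by edgeR and 0.0139 by DESeq2. Without the filter on low counts, CD74 passed in SCC6 (FDR 0.0278) and in the test between lines (FDR 0.0311). The CD74 difference was about as large without the 10 cells of each sample richest in class II UMIs, at 1.14 in SCC1 and 1.34 in SCC25.

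HLA-DRA in SCC6, with 5 and 6 UMIs against 0 and 0, was at least 3.51-fold lower after cetuximab (FDR 0.243). With the replicate number as a block it was the 1 member that passed (FDR 0.0335), where 20.1% of all genes were called and 10.1% were called lower. In SCC25, HLA-DRA differed by 0.33 ± 0.76, and its sign turned to -0.39 without PBS replicate 1 and -0.82 without cetuximab replicate 2. The 2 replicate pairs of SCC25 differed more from each other than from their treated partners: replicate 1 went from 0.349 to 0.579 CPM and replicate 2 from 1.68 to 1.98.

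The remaining members passed in none of the 3 lines. In SCC1, 6 members (HLA-DRB1, HLA-DPA1, HLA-DQB1, HLA-DMA, CD74 and CIITA) were higher in both cetuximab libraries than in both PBS libraries, as were 22.3% of all genes tested. None was lower in both, against 20.4%. HLA-DRB1 went from 4.5 and 4.76 to 6.88 and 5.25 CPM, a difference of 0.39 ± 0.38. HLA-DMA went from 12.6 and 14.4 to 15.5 and 17.5 CPM (0.29 ± 0.31) and HLA-DPA1 from 0.112 and 0.147 to 0.245 and 0.263 (0.96 ± 0.49). In SCC25, 3 members (HLA-DRB1, HLA-DPA1 and CD74) were higher in both cetuximab libraries, against 14.4% of all genes, and CIITA was lower in both, against 15.3%. HLA-DRB1 in SCC25 had 1 UMI with PBS and 6 with cetuximab, a ratio of 5.86 with a counting interval of 0.711 to 269.5. In SCC6, HLA-DRB1 and HLA-DQB1 were higher and HLA-DRA, HLA-DMB, CD74 and CIITA were lower, against 25.5% and 21.4% of all genes. HLA-DRB1 had 3 UMIs with PBS and 9 with cetuximab in SCC6 (ratio 3.14, interval 0.783 to 18.0), HLA-DQB1 had 1 and 5 (5.23, 0.585 to 247) and HLA-DMB had 5 and 1 (0.209, 0.00442 to 1.87). These 4 intervals all include a ratio of 1.

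CIITA had the sign of CD74 in SCC1 and SCC6 and the opposite sign in SCC25, and no test compared the genes. It went from 0.561 and 0.700 to 0.463 and 0.405 CPM in SCC25 (-0.54 ± 0.34, FDR 0.961) and from 0.191 and 0.239 to 0.116 and 0.166 in SCC6 (-0.60 ± 0.39, FDR 0.438). In SCC1 it went from 0.224 and 0.241 to 0.260 and 0.320 (0.32 ± 0.38, FDR 0.933). These values rest on 38 to 117 CIITA UMIs in each PBS group, and on 45, 24 and 81 in the cetuximab groups of SCC1, SCC6 and SCC25. HLA-DPB1 differed by 0.0044 ± 0.47 in SCC25 and HLA-DMA by -0.0095 ± 0.33 in SCC6. The 9 members had a median log2 difference with cetuximab of 0.32 (SCC1), -0.60 (SCC6) and 0.33 (SCC25), beside 0.00119, 0 and -0.00675 over all genes tested. The SCC6 median includes genes with 0 to 3 UMIs, whose fitted values are no bounds.

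The share of positive cells was measured after each cell had been thinned to 15000 UMIs, which kept 23063 cells and left out 851 shallower ones. A cell was positive with 1 UMI. Each of PTPRC, CD3E, MS4A1 and HBB, 4 chosen from the 14 blood cell markers, was found in at most 0.137% of the thinned cells of any sample. CD14 and CD79A, which gave most of the marker sum in SCC1 and SCC6, were not among these 4. The 0.137% is therefore no background for the whole marker list. CD74-positive cells were 2.80% and 3.66% of untreated SCC1 cells and 5.65% and 5.49% of treated cells. In SCC25 they were 0.64% and 2.96% against 5.10% and 3.41%, and in SCC6 0.226% and 0.0411% against 0% and 0.061%. In SCC6, 1 library, PBS replicate 1, lay above 0.137%.

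The mean difference over the 3 lines in CD74-positive cells was 1.57 percentage points, higher in 5 of 6 replicate pairs (exact two-sided permutation p = 0.0463, adjusted p = 0.208 over the 9 genes). That test exchanged samples freely within a line and did not use the replicate pairing. For HLA-DRB1 it was 0.749 points, higher in 4 of 6 pairs (exact permutation p = 0.037, adjusted p = 0.208). In SCC1, HLA-DRB1-positive cells were 5.68% and 5.79% against 9.91% and 5.79%, so the difference came from 1 library. For the other 7 genes the adjusted p was 0.375 to 0.926 by the same exact permutation test, which allows no p under 0.00926. With the pairing kept, by an exact sign-flip permutation test over the 6 pairs, the adjusted p was 0.45 for both CD74 and HLA-DRB1.

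HLA-DQB1 was found in 25.0% and 23.8% of untreated SCC1 cells and 30.1% and 24.6% of treated cells after thinning, and HLA-DMA in 17.6% and 18.2% against 21.4% and 25.5%. Without thinning, 57.2% of SCC1 cells had a HLA-DQB1 UMI and 51.1% a HLA-DMA UMI. HLA-DQB1 was in 0.0112% of SCC25 cells and 0.0617% of SCC6 cells. HLA-DRA-positive cells were 0.411% and 2.72% of untreated and 1.09% and 2.66% of treated SCC25 cells after thinning. HLA-DPB1-positive cells were 2.19% and 1.48% against 2.50% and 1.20%. For both genes, replicates of a group differed by more than the treatment means did.

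The third question was whether few cells carried the UMIs. The number of positive cells was set beside the number expected if a gene's UMIs had followed the depth of each cell. For CD74 it was 572 of 958 expected in SCC1 and 514 of 856 in SCC25, ratios of 0.597 and 0.6. For HLA-DRB1 in SCC1 it was 824 of 1388, a ratio of 0.594, and for HLA-DRA in SCC25 316 of 433, a ratio of 0.730. The ratio was 0.907 for HLA-DQB1 and 0.911 for HLA-DMA in SCC1, and 0.859 and 0.875 for HLA-DPB1 and HLA-DPA1 in SCC25. CIITA was at 0.986, 1.00 and 0.998 in SCC1, SCC6 and SCC25. Thus CD74, HLA-DRB1 and HLA-DRA were gathered in fewer cells than depth gave, whereas CIITA, at its low counts, showed no such gathering. The ratio also depends on the level of a gene, so genes of unlike level are not ranked by it. CIITA rests on 84, 62 and 198 UMIs in SCC1, SCC6 and SCC25. The HLA-DPA1 value in SCC25, 0.875, rests on 223.

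**Figure D3:**
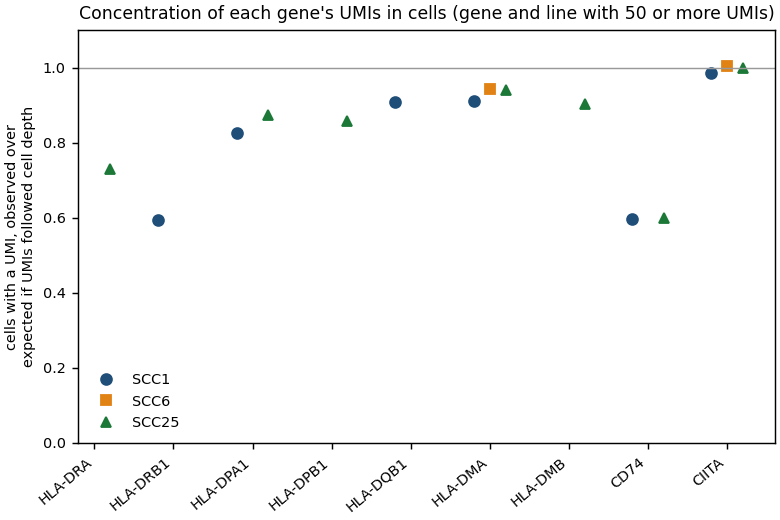
Cells with a UMI divided by the number expected if UMIs followed cell depth (vertical axis, 1 at the grey line), for each gene and line with 50 or more UMIs; circles SCC1, squares SCC6, triangles SCC25. CD74 sat at 0.597 and 0.6 and HLA-DRB1 at 0.594, below HLA-DQB1, HLA-DMA and CIITA.

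In SCC1, 50% of the CD74 UMIs lay in 116 of 5270 cells and 50% of the HLA-DRB1 UMIs in 188. In SCC25, 50% of the CD74 UMIs lay in 106 of 8920 cells and 50% of the HLA-DRA UMIs in 90. The richest cell held 25 CD74 UMIs in SCC1, in cetuximab replicate 1, and 22 in SCC25, in cetuximab replicate 2. The richest HLA-DRA cell held 17 UMIs, also in SCC25 cetuximab replicate 2. The 10 richest cells of a line held 12.9% of CD74 UMIs in SCC1, 11.2% of CD74 and 14.8% of HLA-DRA UMIs in SCC25, so that no single cell made these totals.

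The variance of thinned counts over their mean, which is 1 for counts spread at random, was 1.5 ± 0.187 (SD, n = 4 samples) for CD74 in SCC1 and 1.66 ± 0.311 in SCC25. It was 1.36 ± 0.0761 for HLA-DRB1 in SCC1 and 1.48 ± 0.18 for HLA-DRA in SCC25. It was 1.15 ± 0.0341 for HLA-DQB1 in SCC1, 1.07 ± 0.0992 for HLA-DPB1 in SCC25 and 0.991 ± 0.00122 for CIITA in SCC25. The 4 samples of a line were of both treatments, and cells were not treated as replicates.

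To see whether members met in the same cells, cells with a HLA-DRA UMI were compared with cells without one in SCC25. CD74 was at 2.40 CPM in HLA-DRA-positive cells against 0.43 in the others in PBS replicate 1, 21.6 against 1.40 in PBS replicate 2, 27.6 against 3.66 in cetuximab replicate 1 and 22.4 against 1.58 in cetuximab replicate 2. It was higher in HLA-DRA-positive cells in 4 of 4 samples. HLA-DMB was higher in 4 of 4, with ratios of 6.59 to 16.5, HLA-DPA1 in 4 of 4 (2.88 to 8.80), HLA-DMA in 4 of 4 (2.41 to 4.63) and CIITA in 4 of 4 (2.07 to 4.43, from 17 UMIs in positive cells). HLA-DPB1 was higher in 3 of 4. Median depth was alike, 34336 to 45729 UMIs in positive and 31866.5 to 47789 in negative cells.

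SCC1 had 1 HLA-DRA UMI, and CD74, chosen after the data had been seen, was used to split its cells. HLA-DRB1 was at 7.49 CPM in CD74-positive cells against 4.20 in the others in PBS replicate 1, 12.9 against 3.8 in PBS replicate 2, 12.5 against 5.55 in cetuximab replicate 1 and 9.24 against 4.42 in cetuximab replicate 2. It was higher in 4 of 4 samples. HLA-DQB1 was higher in 4 of 4 with ratios of 1.29 to 1.48 and HLA-DMA in 4 of 4 with ratios of 1.09 to 1.32. CIITA was higher in 1 of 4, with 10 UMIs in CD74-positive cells. CD74-positive SCC1 cells were also deeper, with medians of 58088 to 71467 UMIs against 44844 to 52076, and the part of depth was not tested beyond the scaling to CPM. Split by CD74, SCC25 had HLA-DRA higher in 4 of 4 samples (ratios of 7.55 to 12).

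**Figure D4:**
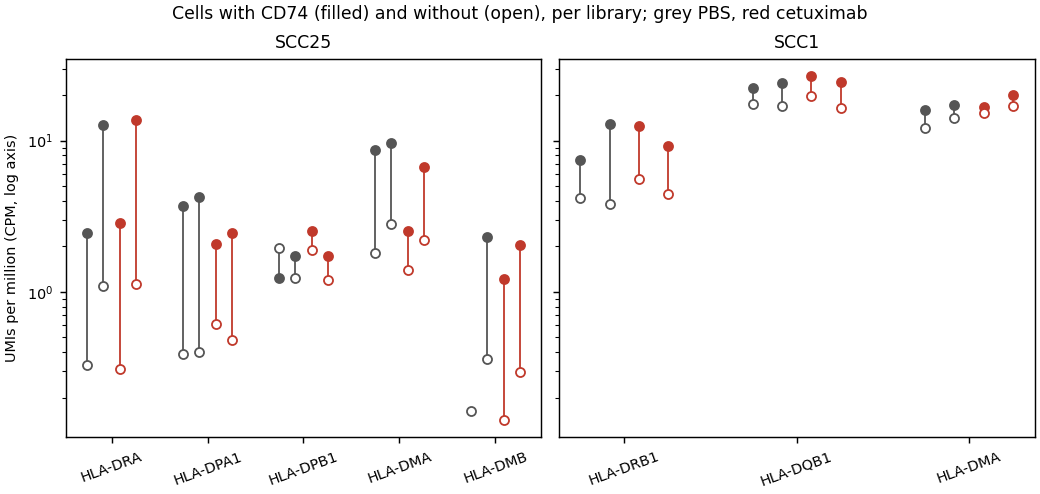
CPM (log axis) of class II genes in cells with CD74 (filled) and without CD74 (open), joined within each of the 4 SCC25 and 4 SCC1 libraries, PBS in grey and cetuximab in red. HLA-DRA in SCC25 and HLA-DRB1 in SCC1 were higher in CD74-positive cells in 4 of 4 libraries; HLA-DMB had no UMI in the CD74-positive cells of SCC25 PBS replicate 1, and no filled point is drawn there.

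Cells positive for both HLA-DRA and CD74 numbered 2 and 43 in the PBS and 16 and 44 in the cetuximab replicates of SCC25, 105 in all. Keratin UMIs were present in 105 of 105 and a PTPRC UMI in 1. The 14 blood cell markers together had 40 UMIs in these cells, 24 of them from CD14. In SCC1, 186 cells held both HLA-DRB1 and CD74. These 105 SCC25 cells thus carried keratin transcripts and nearly no CD45 transcript. They are a part of the 316 HLA-DRA-positive and 514 CD74-positive cells of the line. KRT14 alone had 1135118 UMIs in the HLA-DRA-negative SCC25 cells, so a keratin UMI does not set the 105 cells apart.

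Interferon genes were read in the same cells. In HLA-DRA-positive SCC25 cells, the summed interferon gamma targets were higher in 4 of 4 samples with ratios of 1.43 to 1.71, the type I interferon list in 4 of 4 (1.37 to 1.99) and the class I list in 4 of 4 (1.30 to 1.58). CXCL10, a chemokine that interferon gamma induces, was higher in 3 of 4 and had 1 UMI in the positive cells of PBS replicate 1. In CD74-positive cells CXCL10 was higher in 4 of 4 SCC25 samples (ratios of 2.97 to 14.2) and 3 of 4 SCC1 samples, the exception being PBS replicate 2, at 1.09 against 10.3 CPM. KRT14 was also higher in HLA-DRA-positive cells in 4 of 4 (1.35 to 1.99), so higher values were not limited to immune genes. The 14 blood cell markers were higher in HLA-DRA-positive SCC25 cells in 3 of 4 samples (0.846 to 3.01) and lower in CD74-positive SCC1 cells in 4 of 4 (0.585 to 0.793), and their part was not tested.

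Interferon-related lists were set beside the members. The 14 interferon gamma targets lay on different sides of 0 by line. The log2 difference with cetuximab was above 0 for 14 of 14 in SCC1 (median 1.28) and 14 of 14 in SCC25 (median 0.86), but for 3 of 14 in SCC6 (median -0.53). By edgeR none passed in any single line. At an unadjusted p under 0.05 there were 9, 4 and 5 genes in SCC1, SCC25 and SCC6, 4 of the 5 in SCC6 being lower. Of all 17897 genes tested, 1570, 1041 and 3561 were under 0.05 in these lines. With the replicate block 4 passed in SCC1 and 1 in SCC25, all higher, and 4 in SCC6, of which 1 was higher and 3 were lower. Of all genes, 4.45%, 0.978% and 20.1% were called in SCC1, SCC25 and SCC6, with 10.1% called lower in SCC6. None passed the test of unequal change between lines by edgeR, with 5 at an unadjusted p under 0.05, or with the block, with 7. Over all genes, 1318 and 3289 were under 0.05 without and with the block. Of the 14 targets, 3 rose with cetuximab across lines: GBP1 by 1.31 ± 0.22, CXCL10 by 3.39 ± 0.66 and CXCL11 by 2.97 ± 0.67 (FDR 0.0126, 0.019 and 0.0338). Of 12 type I interferon-stimulated genes 4 rose, IFI6 by 2.07 ± 0.38, IFI27 by 1.42 ± 0.26, IFI44L by 1.57 ± 0.30 and ISG15 by 1.20 ± 0.25 (FDR 0.0163, 0.0171, 0.0179 and 0.0257). Of 9 class I genes 1 rose, HLA-B by 0.93 ± 0.18 (FDR 0.0173). With the replicate block edgeR called 4 of 14, 8 of 12 and 2 of 9 across lines, all higher, against 11.6% of all genes. The list medians were 0.67, 1.13 and 0.53, beside -0.01 for the 9 class II members and 0.006 for all genes tested. CXCL10 and CXCL11 were at 0.0664 CPM or less in every SCC6 library.

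The other lists held few calls. None of 7 transcription complex subunits, 11 processing genes, 9 interferon gamma signalling genes or 3 CD74 partners passed across lines. Of all genes, 3.67% passed. These lists had 0, 1, 2 and 2 genes at an unadjusted p under 0.05, as had 3757 of all 17897 genes tested. By edgeR with the replicate block 0, 0, 1 and 1 passed, against 11.6% of all genes. Of 6 other class II chains 1, HLA-DOB, a chain of the HLA-DM inhibitor HLA-DO, passed the count filter, and it did not pass across lines (0.49 ± 0.24, FDR 0.267). Of 7 costimulation and adhesion genes 1 rose across lines, PDCD1LG2, which encodes the checkpoint ligand PD-L2, by 2.22 ± 0.34 (FDR 0.00903). As a check of the treatment, 8 EGFR response genes were read, of which 1 passed across lines. This was EREG, an EGFR ligand that EGFR signalling induces, which changed by -1.96 ± 0.45 (FDR 0.0354). The check was uneven between lines. Its median log2 difference was -1.85 for SCC6, where 3 of 8 passed, all lower, and -0.66 for SCC1, where 0 passed. For SCC25 the median was -0.069, with 3 of 8 above 0 and 0 at an unadjusted p under 0.05. The check therefore did not show a response in SCC25.

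Markers of other cells moved with treatment in places. Fibroblast and endothelial markers summed to 1.19 and 2.92 CPM in untreated and 24.3 and 20.4 in treated SCC6, to 7.53 and 7.27 against 15.2 and 16.4 in SCC1 and to 9.42 and 9.04 against 20.1 and 17.7 in SCC25. In SCC6, COL1A1 and PDGFRB rose by 3.45 ± 0.41 and 4.67 ± 0.78 (FDR 0.00631 and 0.0144), and ITGAX changed by -2.92 ± 0.68 (FDR 0.0438). Across lines COL1A2 rose by 1.16 ± 0.24 (FDR 0.0246), and KRT17, of the 10 squamous markers, by 1.25 ± 0.22 (FDR 0.0149). In SCC6 alone 3 squamous markers passed, KRT17 higher by 1.64 ± 0.39 (FDR 0.0463) and KRT6A and S100A2 lower, at -2.60 ± 0.27 (FDR 0.00373) and -1.10 ± 0.24 (FDR 0.0329). Of 4 blood markers tested, none passed across lines, and their summed level overlapped between treatments in all 3 lines. Their part in the class II values was not tested.

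Genes whose levels followed HLA-DRA and CD74 were sought among 9630 genes with a mean of 5 CPM or more, by Pearson r of log2 CPM over the 12 samples after the mean of each line had been taken off. For HLA-DRA they were DENND2D (r = 0.96), NTN4 (0.94), ALDH5A1 (0.93), MGMT (0.93) and ISYNA1 (0.92). Its variation came mainly from the 4 SCC25 samples, and these are genes that differ between the SCC25 replicates. A smaller part came from SCC6, where HLA-DRA had UMIs only with PBS, and it also enters these r. For CD74 they were LACTB (0.95), TPRA1 (0.93), CD46 (0.93), CST3 (0.93) and UNC93B1 (0.93). B2M, the light chain of class I molecules, ranked 47 for CD74 (r = 0.86) and 4229 for HLA-DRA (r = 0.19). These r are descriptions over samples that share lines and treatment.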

How the data were processed

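UMI counts per gene and cell were deposited by the authors as 1 table per line, with no normalisation. The submitters' processing notes name Cell Ranger and GRCh38, and the study's methods Monocle 3 for pre-processing. The Cell Ranger version, annotation and strand setting are not given in the sources used here. The 9 genes and the other lists were chosen with earlier results of these data known. Groups and replicate numbers came from the labels.

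Counts of symbols found on several rows were added (24 symbols), and UMIs were summed per sample over all 23914 cells, with no doublet caller run. The sums were tested with edgeR 4.0.16 (TMM, filterByExpr, quasi-likelihood, 1 mean per group, 6 residual degrees of freedom, R 4.3.3) over 17897 genes, two-sided, with Benjamini-Hochberg adjustment (FDR). The effect across lines came from a fit of line and treatment, and differences between lines from the F-test of their interaction. CPM uses TMM-scaled totals. A bound uses 3 UMIs over the 2 libraries of a group, and a group with 1 to 3 UMIs is given with an exact counting interval. UMI intervals cover counting error only. Named genes were all 9 members and, from each other list, up to 4 genes with the smallest p among those called.

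Whether replicates are separate cultures is not clear from the labels, so p-values may cover technical spread only. Replicates of the same number deviated together (r = 0.65, 0.59 and 0.72 in SCC1, SCC6 and SCC25 over 9630 genes). The numbers were therefore taken to pair the samples in the replicate block and the sign-flip test. The main edgeR fit and the main permutation test did not use this pairing. The script was tested on simulated data. Alternatives were the replicate block, DESeq2 1.42.0, DESeq2 size factors, no count filter, each library left out, and cells with most UMIs, over 20% mitochondrial UMIs or most class II UMIs left out. The deposited gene annotation table was not used.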

Additional observations from a re-analysis of the deposited data

Results flagged for a closer look

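CD74 is listed because every replicate moved one way in SCC1 and SCC25 and the other way in SCC6. Its mean went from 2.11 to 5.07 CPM in SCC1 and from 1.42 to 3.50 in SCC25 with cetuximab, and from 0.116 to 0.00553 in SCC6, where it rests on 21 UMIs. The difference between lines was tested and had FDR 0.54 by edgeR and 0.0139 by DESeq2.

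CIITA is listed because every replicate moved one way in SCC1 and the other way in SCC6 and SCC25. Its mean went from 0.232 to 0.290 CPM in SCC1, and from 0.215 to 0.141 in SCC6 and from 0.630 to 0.434 in SCC25. The difference between lines did not pass, with FDR 0.901 by edgeR.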

How the results depend on the processing

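The number of members called was 0 for cetuximab in each line, across lines and between lines on leaving out each of the 12 libraries in turn. It was 1 in SCC6 without the filter on low counts (CD74) and 1 with the replicate block (HLA-DRA), against 20.1% of all genes. Between lines it was 1 with DESeq2, against 1.67% of genes, and 1 without the filter (both CD74). The block changed no other call, and it was not fitted to the comparisons of untreated lines. DESeq2 gave no adjusted p for HLA-DMB in SCC1 and SCC25. The shares of all genes called without the filter or on leaving out a library were not taken. Those counts therefore have no share beside them. With 2 libraries a group, small differences could not be seen, and HLA-DRA, HLA-DPB1, HLA-DQB1 and HLA-DMB in SCC6 rest on 0 to 11 UMIs a group. The causes of the changes below were not tested.

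Differences near 0 changed sign. HLA-DMA in SCC6 was 0.0084 with the fit to the line alone and 0.0022 with the replicate block, and HLA-DPB1 in SCC25 was -0.0028 and -0.00066. Without the 10 cells richest in class II UMIs, HLA-DMB in SCC25 was -0.13 and HLA-DPB1 across lines 0.013. The HLA-DMB share difference was 0.0724 percentage points without thinning. On leaving out 1 library, the log2 difference with cetuximab ranged in SCC1 from -2.11 to 0.15 for HLA-DPB1 and from -0.42 to 0.0098 for HLA-DMB, and in SCC6 from -0.24 to 0.26 for HLA-DMA. In SCC25 it ranged from -0.82 to 1.88 for HLA-DRA, -0.35 to 0.35 for HLA-DPB1, -0.74 to 0.093 for HLA-DMA and -0.44 to 1.05 for HLA-DMB. Across lines it ranged from -1.29 to 0.28 for HLA-DRA, -0.39 to 0.048 for HLA-DPB1, -0.066 to 0.13 for HLA-DMA and -0.51 to 0.026 for HLA-DMB. Between untreated lines it ranged from -0.041 to 0.28 for CIITA in SCC1 against SCC6 and from -0.19 to 2.23 for CD74 in SCC1 against SCC25. The share difference ranged from -0.288 to 0.481 points for HLA-DRA, -0.186 to 0.246 for HLA-DPB1, -0.128 to 0.0484 for HLA-DMB and -0.0572 to 0.0786 for CIITA.

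Variance over mean was higher in all cells without thinning. It was 2.14 for HLA-DRA, 1.27 for HLA-DPA1, 1.42 for HLA-DPB1, 1.16 for HLA-DMA, 3.15 for CD74 and 1.00355 for CIITA in SCC25, 3.21 for HLA-DRB1, 1.75 for HLA-DQB1, 1.63 for HLA-DMA and 3.67 for CD74 in SCC1, and 1.16 for HLA-DMA in SCC6. Of the alternatives for single genes, 734 kept the direction and the side of the threshold and 30 turned the direction, while 8 lost and 5 gained a call.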
